A study of Mus musculus with 14 samples.

Results

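In BMP6-stimulated muscle stem cells (MuSCs), 3463 of the 7339 pSMAD1/5/9 peaks (47.2%) lay where control cells had a SMAD4 peak but no pSMAD1/5/9 peak. These sites, called preloaded sites here, were selected on measured values: a pSMAD1/5/9 peak of BMP6-stimulated cells was taken when it overlapped no control pSMAD1/5/9 peak and at least 1 control SMAD4 peak, by at least 1 bp. They made up 53.3% of the 6500 new pSMAD1/5/9 peaks (95% Wilson interval 52.1 to 54.5). The other 3037 new peaks had no SMAD4 peak in control cells, and 839 peaks were shared with control cells. All intervals cover counting error only.

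Bone morphogenetic proteins (BMPs) bind receptor kinases at the cell surface that phosphorylate SMAD1, SMAD5 and SMAD9. The phosphorylated proteins (pSMAD1/5/9) join SMAD4, a partner that they share with the SMADs of the TGF-β branch, and the complexes bind DNA in the nucleus. SMAD1/5 prefers GC-rich sites, while SMAD4 recognises the short SMAD box. In MuSCs, the stem cells that regenerate skeletal muscle, BMP signalling is known to restrain differentiation and to act on the Id genes, whose products block the E protein partners of myogenic factors.

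MuSCs were sorted by GFP from muscles of the limbs, back and breast of female C57BL/6N(Tg(Pax7-EGFP)Tajb) mice, 9 weeks old, in which the fluorescent protein reports on Pax7, and were then cultured. All cells were starved for 6 h with 200 ng/mL soluble BMPR1A, a decoy receptor for BMPs, so the control cells had this treatment too. BMP6 at 100 ng/mL or the vehicle (4 mM HCl with 0.1% BSA, called control) was given for 1 h, followed by light fixation with 0.1% formaldehyde for 2 min. CUT&Tag, in which an antibody on chromatin guides a transposase to cut and tag the DNA there, was made with 100000 cells per library, with 2 replicates for each of pSMAD1/5/9, SMAD4 and H3K27ac (a mark of active promoters and enhancers) in each condition. Each list joins the replicates of a condition, with a signal score per replicate and without reads, and depth per peak is therefore unknown. The cell type was checked by H3K27ac at the transcription start site (TSS) of marker genes in control cells. A peak was present at 6 of 6 MuSC genes (Cdh15, Chodl, Itga7, Myf5, Myod1 and Pax7), at 1 of 4 fibro-adipogenic genes (Cd34), at 0 of 3 endothelial and 0 of 3 immune genes, and at 3 of 4 myofibre genes (Acta1, Ckm and Myh1).

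The DNA at the summits of preloaded sites that the results below turn on is printed from the plus strand of GRCm39, as the 200 bp in which motifs were searched. Capitals mark the GC-rich site GGCGCC, its variant GGAGCC and the SMAD box CAGAC, on either strand, so that GGCTCC and GTCTG are marked as well. The Tas1r2 and Atoh8 sites are among the strongest, the Id1 and Id3 sites belong to known BMP targets, and the Defb42 and Prep sites had some of the widest gains and losses in SMAD4 rank.
Tas1r2 site, chr4:139425206-139425405: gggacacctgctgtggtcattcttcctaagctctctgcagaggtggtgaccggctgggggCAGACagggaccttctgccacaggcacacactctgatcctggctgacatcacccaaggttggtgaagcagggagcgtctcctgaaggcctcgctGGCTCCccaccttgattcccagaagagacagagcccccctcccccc
Atoh8 intronic site, chr6:72193783-72193982: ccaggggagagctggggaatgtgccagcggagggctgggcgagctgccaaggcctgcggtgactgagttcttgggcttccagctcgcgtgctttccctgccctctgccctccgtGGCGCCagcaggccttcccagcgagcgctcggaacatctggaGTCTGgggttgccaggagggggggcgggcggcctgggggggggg
Id1 site, distal, chr2:152571549-152571748: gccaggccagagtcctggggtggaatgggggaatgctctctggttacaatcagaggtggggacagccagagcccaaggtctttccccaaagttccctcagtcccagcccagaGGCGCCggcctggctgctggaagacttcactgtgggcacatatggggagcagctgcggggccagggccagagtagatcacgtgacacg
Id1 promoter-proximal site, chr2:152576902-152577101: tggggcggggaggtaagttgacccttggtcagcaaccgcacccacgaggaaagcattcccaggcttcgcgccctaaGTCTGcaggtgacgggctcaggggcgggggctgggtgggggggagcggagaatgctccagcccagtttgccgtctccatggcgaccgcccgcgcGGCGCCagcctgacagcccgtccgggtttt
Id3 site, chr4:135875106-135875305: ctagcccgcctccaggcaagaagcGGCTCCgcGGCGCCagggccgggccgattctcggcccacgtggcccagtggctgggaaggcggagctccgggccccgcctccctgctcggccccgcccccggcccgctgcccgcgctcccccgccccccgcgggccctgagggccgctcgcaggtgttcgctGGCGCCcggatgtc
Defb42 site, chr14:63292202-63292401: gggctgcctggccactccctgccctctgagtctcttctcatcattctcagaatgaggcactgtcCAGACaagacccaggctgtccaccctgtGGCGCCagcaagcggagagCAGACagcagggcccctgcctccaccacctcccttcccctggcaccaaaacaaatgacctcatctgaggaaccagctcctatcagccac
Prep site, chr10:44952812-44953011: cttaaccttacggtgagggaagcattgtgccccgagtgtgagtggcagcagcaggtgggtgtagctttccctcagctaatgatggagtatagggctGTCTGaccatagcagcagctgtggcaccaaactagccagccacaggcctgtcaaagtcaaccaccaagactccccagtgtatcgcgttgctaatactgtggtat

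The Atoh8, Id1 promoter-proximal and Defb42 windows held GGCGCC together with a SMAD box. The Id3 window held 2 copies of GGCGCC and 1 of GGAGCC but no SMAD box. The Prep window had a single SMAD box and no GC-rich site.

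Among all pSMAD1/5/9 peaks ranked by signal, preloaded sites were of intermediate strength. Their median rank was 2766 (quartiles 1410 and 4588), compared with 5110 for the other new peaks and 1162 for shared peaks. This order held in each replicate, with medians of 2864 and 2852 for preloaded sites and 5019 and 4984 for other new peaks. Their peaks had a median width of 630 bp, against 504 bp and 795 bp. The median −log10 of the irreproducible discovery rate (IDR) was 2.30, against 1.67 and 3.26. These values helped to define the list and are not tested. Near the edges of the rule, 12 preloaded sites overlapped the control SMAD4 peak by 50 bp or less, the smallest overlap being 3 bp, and 31 other new peaks had a control SMAD4 peak within 50 bp. Of the preloaded sites, 76 (2.19%) were within 1 kb of a control pSMAD1/5/9 peak. In total, 3585 of the 8577 control SMAD4 peaks (41.8%) lay under preloaded sites. A single SMAD4 peak was present at 93.8% of the sites, 2 peaks at 6.04%, and up to 4 at the remainder.

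The first question was whether SMAD4 was also listed at these sites after BMP6. The rule did not use the SMAD4 list of BMP6-stimulated cells. It did split the new peaks by the control list of the same antibody. A higher share at preloaded sites can in part follow from this split, and how far was not tested. A SMAD4 peak of BMP6-stimulated cells overlapped 3014 of the 3463 preloaded sites (87.0%, 85.9 to 88.1). This was the case for 1581 of the 3037 other new peaks (52.1%, 50.3 to 53.8). The difference passed Fisher's exact test (two-sided, odds ratio 6.18, adjusted exact p = 5.0e-215 with the Benjamini-Hochberg method over 39 comparisons). Shared peaks had SMAD4 more often, at 780 of 839 (93.0%, 91.0 to 94.5, odds ratio for preloaded sites 0.51, adjusted exact p = 4.3e-06). With control SMAD4 peaks restricted to an IDR of at most 0.01, the share at preloaded sites was 93.8% and no longer lower than that at shared peaks (adjusted exact p = 0.61). Since peaks are no replicates of a condition, all p-values here compare lists of peaks and do not measure the spread between cultures.

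The share with SMAD4 after BMP6 was lower at weaker pSMAD1/5/9 peaks in both classes of new peak, apart from the 20 other new peaks of the strongest decile. At preloaded sites it was 99.0% in the strongest decile of all peaks and 69.5% in the weakest. At other new peaks it was 85.0% (17 of 20) and 27.4% in the same deciles. Since preloaded sites were stronger, the comparison was repeated within quartile groups of all new peaks by signal. From the strongest quartile group to the weakest, SMAD4 was present at 96.6% against 83.9%, 86.6% against 69.0%, 78.4% against 53.1%, and 71.9% against 34.9%, and the difference passed the test in each quartile group (highest adjusted exact p = 2.3e-11). The 449 preloaded sites without SMAD4 after BMP6 had a median pSMAD1/5/9 rank of 4553, and 2514 was the median for the 3014 with it. Their control SMAD4 peaks were also weaker, with median ranks of 5206 and 2506.

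**Figure D1:**
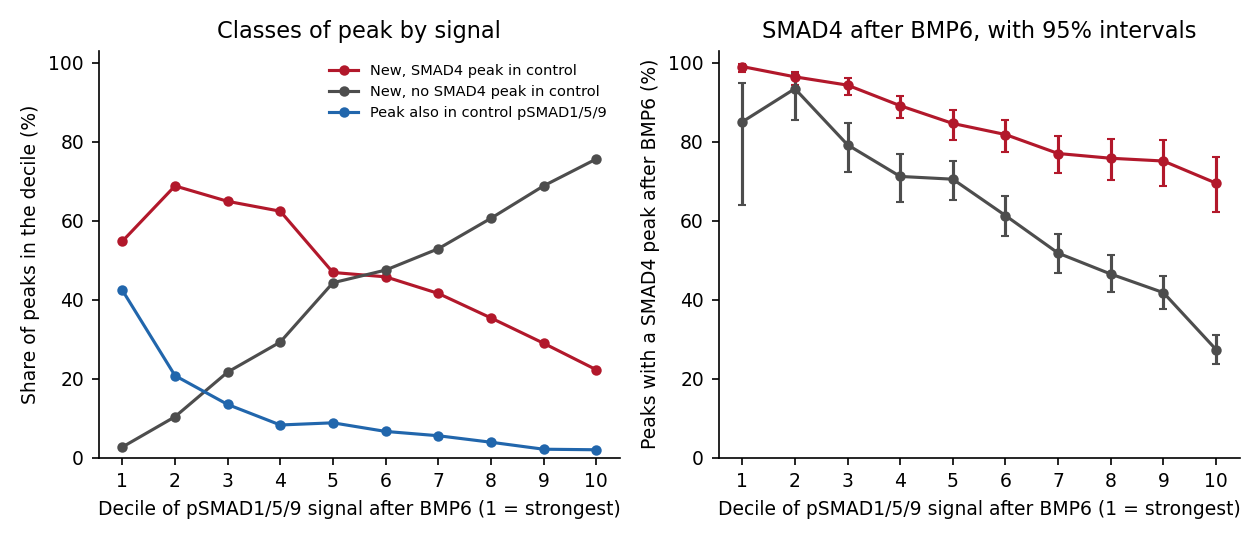
Left, the share of each decile of pSMAD1/5/9 signal (x axis, 1 is the strongest) that was a preloaded site (red), another new peak (grey) or shared with control (blue). Right, the percentage of preloaded sites and other new peaks with a SMAD4 peak after BMP6 in each decile, with 95% Wilson intervals; preloaded sites go from 99.0% to 69.5% and other new peaks from 85.0% to 27.4%.

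The reverse view starts from the control SMAD4 peaks. Of the 3585 under preloaded sites, 3100 (86.5%, 85.3 to 87.6) still overlapped a SMAD4 peak after BMP6. Of the 4096 control SMAD4 peaks without any pSMAD1/5/9 peak, 2038 (49.8%, 48.2 to 51.3) did (Fisher's exact test, odds ratio 6.45, adjusted exact p = 1.5e-268). The control peaks under preloaded sites were stronger, with a median rank of 3022 against 5842. Within quartile groups of control SMAD4 signal, from strongest to weakest, the shares kept were 97.6% against 89.0%, 87.1% against 71.1%, 79.4% against 51.4%, and 63.8% against 30.7%, and each difference passed the test (highest adjusted exact p = 1.7e-08). Whether control signal still differed between the sets inside a group was not tested.

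The level of SMAD4 was compared as a rank, since the signal scores of different lists have no stated common scale. Percentiles were taken within each replicate among the 5640 SMAD4 peaks that matched 1 to 1 between control and BMP6. A peak was said to rise when its percentile in both BMP6 replicates exceeded that in both control replicates, and to fall in the opposite case. Over all matched peaks, 23.6% rose and 25.8% fell. At preloaded sites 755 of 2933 rose (25.7%, 24.2 to 27.4) and 710 fell (24.2%, 22.7 to 25.8), both close to these background shares. The median percentile at preloaded sites was 57.0 and 56.9 in the control replicates and 58.8 and 58.5 in the BMP6 replicates. Matched peaks without pSMAD1/5/9 rose in 399 of 1913 cases (20.9%) and fell in 527 (27.5%). Their median percentile was lower, at 30.5 and 30.8 in the control replicates. Because the control percentile is part of the call, the tests of rises and falls compare sets with unlike starting levels. The difference from preloaded sites passed the test for rises (odds ratio 1.32, adjusted exact p = 3.7e-04) and for falls (odds ratio 0.84, adjusted exact p = 0.034). Without the first of the 2 BMP6 replicate columns neither call held, at 36.9% against 33.8% for rises (adjusted exact p = 0.11) and 36.3% against 39.7% for falls (adjusted exact p = 0.076).

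The summits of both proteins lay close together. The median distance from the pSMAD1/5/9 summit to that of the control SMAD4 peak was 75 bp (quartiles 33 and 149), and 61.0% were within 100 bp. To the SMAD4 summit of BMP6-stimulated cells the median was 76 bp. At the 3014 sites with SMAD4 in both conditions, the summit after BMP6 was nearer to pSMAD1/5/9 at 1523 (50.5%) and farther away at 1472 (48.8%).  Overlap was required by the rule, so the distances are a description.

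Preloaded sites lay almost without exception in chromatin that already carried H3K27ac. The rule required a control SMAD4 peak, and the paper reports that most SMAD4 peaks overlapped H3K27ac. A high share at preloaded sites can in part follow from this, and how far was not tested. A control H3K27ac peak overlapped 3457 of 3463 (99.8%), against 94.2% of other new peaks (odds ratio 35.44, adjusted exact p = 9.4e-50). After BMP6, 3462 preloaded sites overlapped an H3K27ac peak, against 95.7% of other new peaks (adjusted exact p = 7.8e-42). All 839 shared peaks had H3K27ac in both conditions. Within quartile groups of signal, the control difference did not pass in the second strongest quartile group (99.6% against 98.8%, adjusted exact p = 0.30). On autosomes alone the control shares were 99.8% and 97.3%, and the difference still passed (adjusted exact p = 2.5e-18). These H3K27ac peaks were strong. The strongest one over a preloaded site had a median rank of 4220 among the 67790 of control cells, and 66.1% of the sites lay in the top 10% of the list, compared with 42.3% of other new peaks and 83.1% of shared peaks (no test was made).

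The H3K27ac peaks with preloaded sites were also broad, with a median width of 3500 bp against 1400 bp for all control H3K27ac peaks. Preloaded sites were spread over 3066 of them, and 311 held 2 or more. The largest number, 6, was found in a domain on chromosome 6 from 125119101 to 125146700, at Gapdh. Domains at Anxa2, Lmna, Wdr81, Sspn and Irf2bpl held 5 each, and those at Ccn4, a secreted matricellular protein, and Pax7, the transcription factor that marks MuSCs, held 4 each.

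H3K27ac was followed by rank as well. Among 53629 matched H3K27ac peaks, 16.1% rose and 17.0% fell by the rule used for SMAD4. For peaks at preloaded sites 369 of 2961 rose (12.5%) and 371 fell (12.5%), which is below these background shares in both directions. Their median percentile was 90.7 in both control replicates, and 91.2 and 89.3 in the BMP6 replicates. The BMP6 replicates differed here: with the first left out, 26.3% rose and 47.0% fell, and with the second left out 44.4% rose and 26.7% fell. The 16.1% and 17.0% above belong to the call on both replicates of each condition and are no background for these shares. No direction is therefore given for H3K27ac.

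By gene annotation, no difference in location was detected. Preloaded sites lay within 2 kb of a TSS in 1166 cases (33.7%), in exons in 5.11%, in introns in 28.6% and between genes in 32.7%. For other new peaks the corresponding shares were 33.6%, 4.94%, 27.9% and 33.6%, and for shared peaks 35.3%, 5.48%, 28.8% and 30.4%. None of these differences passed the test (lowest adjusted exact p = 0.53), and the Wilson intervals of the TSS share were 32.1 to 35.3 for preloaded sites and 32.0 to 35.3 for other new peaks. In the strongest quartile group of new peaks by signal, the TSS share was 30.9% for preloaded sites and 39.4% for other new peaks (adjusted exact p = 0.037).

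The X chromosome was the exception. It held 74 preloaded sites (2.14%, 1.71 to 2.67), 279 other new peaks (9.19%, 8.21 to 10.3) and 15 shared peaks (1.79%, 1.09 to 2.93). Fisher's exact test gave a difference from other new peaks (odds ratio 0.22, adjusted exact p = 2.4e-36) and was present in each quartile group of signal (highest adjusted exact p = 2.3e-04). All 74 preloaded X-linked sites had H3K27ac in control cells, against 177 of 279 other new X-linked peaks (63.4%), and 58 (78.4%) had SMAD4 after BMP6, against 52 (18.6%).

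Motifs were counted in the 200 bp around each pSMAD1/5/9 summit, on both strands. A match is a description of the sequence and not a binding site. The SMAD box CAGAC was present at 1767 preloaded sites (51.0%, 49.4 to 52.7) and at 45.7% of other new peaks (odds ratio 1.24, adjusted exact p = 8.2e-05). The E-box CAGCTG, which is bound by MYOD and other helix-loop-helix factors, was present at 33.3% and 28.3% (odds ratio 1.26, adjusted exact p = 8.2e-05). Their shares over windows of the same length were 44.5% and 21.5% at all 67790 control H3K27ac summits, 48.6% and 31.1% at all pSMAD1/5/9 summits, and 51.5% and 32.7% at all control SMAD4 summits. Within quartile groups of pSMAD1/5/9 signal, the SMAD box passed only in the third strongest (53.0% against 45.5%, adjusted exact p = 0.014) and the E-box only in the strongest (34.2% against 26%, adjusted exact p = 0.037). The GC-rich site GGCGCC was present at 8.55% and 7.21%, which did not pass after adjustment (exact p = 0.048, adjusted exact p = 0.15), and its share at H3K27ac summits was 3.62%. GGAGCC was present at 25.7% and 24.6% (H3K27ac summits 17.2%), and either GC-rich site together with a SMAD box at 13.5% and 12% (8.38%).

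The AP-1 site, TGAGTCA or TGACTCA, was found at 15.8% of preloaded sites and 15.1% of other new peaks (10.2% of H3K27ac summits). The TEAD site GGAATG was at 15.4% and 15.6% (12.3%), and the RUNX site TGTGGT at 21.9% and 22.4% (19.1%). The palindromic NFI site was at 3 preloaded sites and at 0 other new peaks (0.0251%). None of these passed over all peaks. Within quartile groups of signal, GGAATG was more frequent at preloaded sites in the strongest (17.3% against 11%, adjusted exact p = 0.037) and less frequent in the third (13.0% against 17.8%, adjusted exact p = 0.027), and TGTGGT was less frequent in the weakest (14.6% against 22.6%, adjusted exact p = 0.0011). Compared with shared peaks, 0 of the 10 motif measures differed past the threshold (Fisher's exact test, lowest adjusted exact p = 0.15), and GGCGCC alone had an unadjusted p under 0.05, at 8.55% against 6.44% (exact p = 0.049). Mean GC content was 57.8% ± 8.61 (SD over 3463 windows) at preloaded sites, 56.0% ± 9.52 at other new peaks and 57.6% ± 7.70 at shared peaks. At control H3K27ac summits the mean was 51.5%, so the motif shares given for those summits are not matched for GC content.

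**Figure D2:**
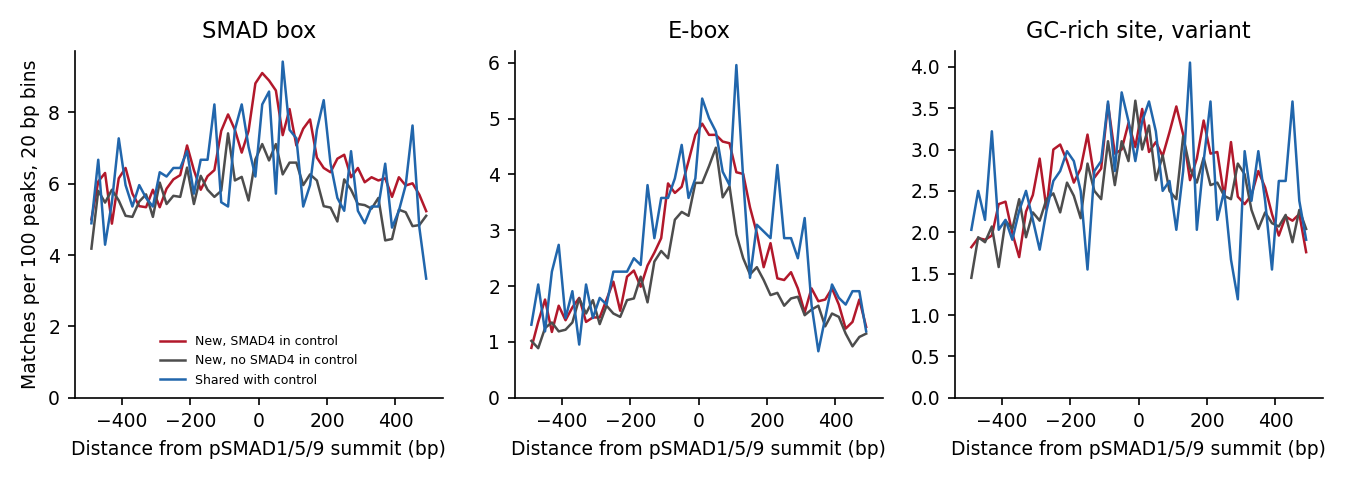
Matches to the SMAD box, the E-box and the GC-rich variant site per 100 peaks in 20 bp bins (y axis) against the distance from the pSMAD1/5/9 summit in bp (x axis), for preloaded sites (red), other new peaks (grey) and shared peaks (blue). The SMAD box averages 8.29 matches per 100 preloaded sites in the bins within 60 bp of the summit and 5.75 in the bins beyond 390 bp, and the E-box 4.51 and 1.41; at other new peaks the values are 6.54 and 5.20, and 3.82 and 1.15.

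The palindrome GTCTAGAC, which joins AGAC, a part of the SMAD box CAGAC, to its reverse complement GTCT, had the widest ratio of any motif that passed. The palindrome itself holds no whole SMAD box. It was present at 30 preloaded sites (0.866%, 0.607 to 1.23) and at 4 other new peaks (0.132%, 0.0512 to 0.338; odds ratio 6.63, adjusted exact p = 8.2e-05). It was also present at 4 shared peaks (0.477%, adjusted exact p = 0.70), at 0.518% of all pSMAD1/5/9 summits, at 1.15% of control SMAD4 summits and at 0.260% of control H3K27ac summits. All 30 preloaded sites with the palindrome had SMAD4 after BMP6, which 87.0% of all preloaded sites had. This difference was not tested. Of 31 matches, 26 were centred within 50 bp of the pSMAD1/5/9 summit, with a median distance of 30 bp. To show where the palindrome sits in its context, 30 bases around it are given for 6 of the 9 strongest of these sites, plus strand of GRCm39, with the palindrome in capitals. Sites are named by the nearest protein-coding gene.
Smad6, chr9:63929327-63929356: atcatatgccaGTCTAGACactttggcggc
Haus7, chrX:72509233-72509262: gagactcttggGTCTAGACttcttggcaag
Mttp, chr3:137816854-137816883: tacactgggaaGTCTAGACacagtgggcat
Trpc7, chr13:57194141-57194170: cagctgtgttgGTCTAGACtgcattgctcc
Mcts2, chr2:152548277-152548306: agagcctctgaGTCTAGACtccagatgtga
Fstl3, chr10:79614000-79614029: tcctgggcactGTCTAGACagagggcagag

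The strongest of them, pSMAD1/5/9 rank 90, lay 44 bp downstream of the TSS of Smad6, which encodes an inhibitor of BMP receptor signalling. The Fstl3 site, rank 1105, lay 889 bp downstream of the TSS of a gene for a secreted antagonist of activins. The site named after Mcts2 is at rank 794. Within quartile groups of pSMAD1/5/9 signal the palindrome was present at 15, 4, 10 and 1 preloaded sites and at 0, 1, 3 and 0 other new peaks, from strongest to weakest. These counts did not pass the test in any quartile group (lowest adjusted exact p = 0.054), nor did 19 against 2 with pSMAD1/5/9 peaks of an IDR of at most 0.01 (adjusted exact p = 0.23).

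The 10 strongest preloaded sites ranked from 9 to 37 by pSMAD1/5/9 signal. The first, on chromosome 4 from 139423909 to 139426560 and 44457 bp from the TSS of the taste receptor gene Tas1r2, had pSMAD1/5/9 scores of 77223 and 53515 in the replicates. Its SMAD4 percentile was 98.8 and 99.9 in control and 98.3 and 99.0 after BMP6, so the ranges overlapped. Creb3l1, a transcription factor gene, had an intronic site (rank 10) with SMAD4 percentiles of 88.3 and 93.8 in control and 94.5 and 90.5 after BMP6. At Smad7, which encodes the other inhibitory SMAD, the site lay 307 bp upstream of the TSS (rank 15) and SMAD4 was already near its maximum in control, with percentiles of 99.6 and 99.8, then 99.8 and 99.9. The site in an intron of Atoh8, a helix-loop-helix factor induced by BMPs, had rank 24 and rose from 89.7 and 92.9 to 96.6 and 96.0. The site 90 bp upstream of the TSS of Kat6b, a histone acetyltransferase, had rank 26 and overlapping values. Sites nearest to Hacl1, Bmal1 (a core clock factor), Mok, Tex44 and Ttll11 completed the group. Of the 10, SMAD4 rose at Smad7 and Atoh8 and fell at Mok, from 99.9 and 99.5 to 99.2 and 96.5. Over all matched SMAD4 peaks 23.6% rose and 25.8% fell. Control SMAD4 rank was high at most of the 10 sites, between 8 and 691, except at Ttll11, where it was 4327.

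Some preloaded sites changed from weak to strong SMAD4 peaks. The widest rise was at the Wwc2 promoter, 39 bp upstream of the TSS on chromosome 8. Its SMAD4 scores were 2656 and 2027 in control and 22092 and 11744 after BMP6, which moved the percentile from 1.6 and 5.0 to 84.9 and 82.7. Wwc2 encodes a regulator of the Hippo pathway. The next was an intergenic site 9191 bp upstream of Id1, on chromosome 2 from 152568301 to 152569410. Its SMAD4 scores went from 3974 and 2096 to 36787 and 13078, and the percentile from 15.4 and 6.5 to 96.8 and 85.7. Rara, the gene of a retinoic acid receptor, had an intronic site that rose from 9.1 and 16.8 to 90.6 and 94.3. The sites at Defb42 and Daam1 rose by a mean of 78.2 and 77.5 percentile points. In each of these 5 cases both BMP6 values were above 70 and both control values below 20.

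Others changed from strong to weak. The site nearest to Rpl32, a ribosomal protein gene, had SMAD4 scores of 16616 and 7991 in control and 3590 and 1565 after BMP6, and its percentile fell from 85.8 and 76.6 to 7.4 and 1.6. An intergenic site 14003 bp upstream of Ampd3 went from 88.2 and 83.7 to 17.4 and 4.2. The intronic site at Prep went from 76.8 and 89.2 to 17.9 and 12.1, and its pSMAD1/5/9 peak ranked 873. The sites at Naxd and Gm68765 fell by a mean of 66.6 and 64.5 percentile points. These 10 sites were picked for the size of the change, so their values are a description.

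**Figure D3:**
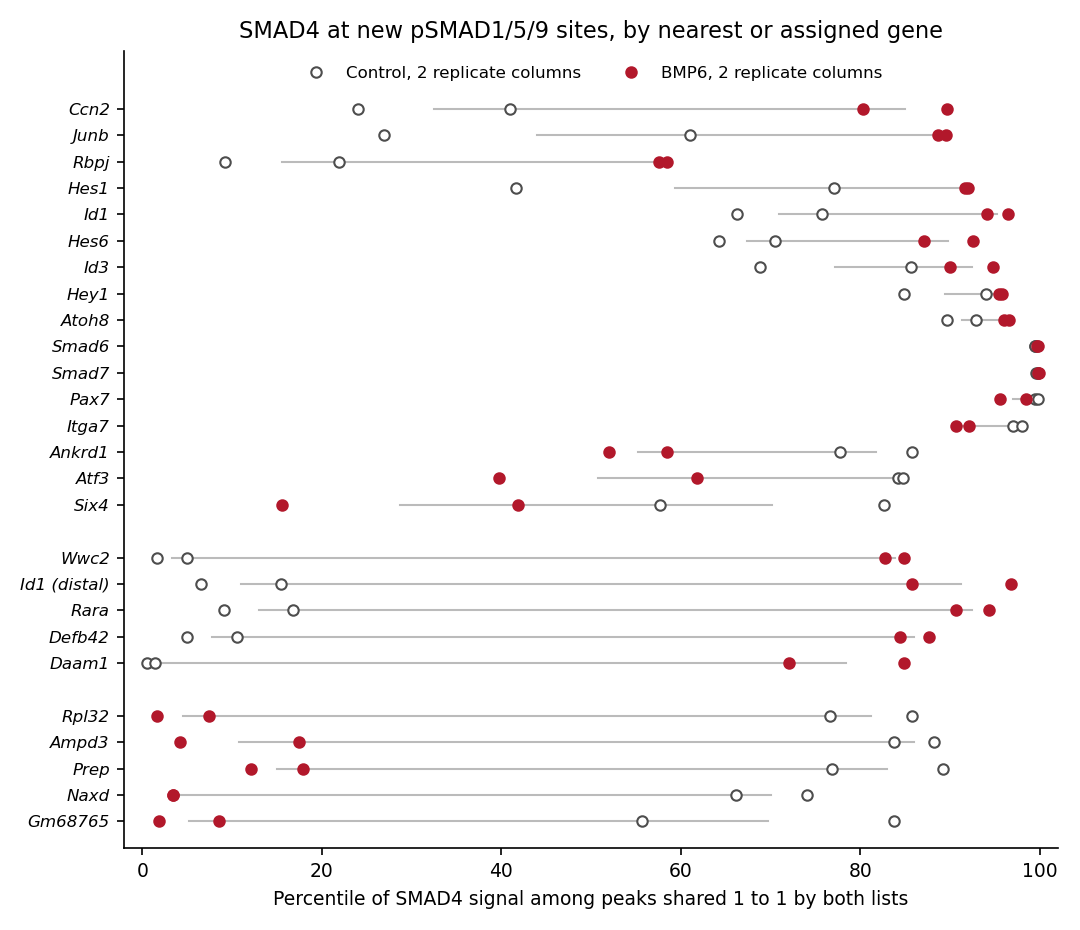
Percentile of SMAD4 signal among matched peaks (x axis) in the 2 control replicates (open) and the 2 BMP6 replicates (red) at preloaded sites, with a line between the means. The upper block shows the strongest site of 16 genes from the lists, picked after their values were seen, the middle block the 5 widest rises and the lower block the 5 widest falls; at Wwc2 the points go from 1.6 and 5.0 to 84.9 and 82.7.

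Genes were next examined by lists chosen with earlier results of these data known, and a gene was counted when a preloaded site lay in its body or within 20 kb. Of all 21603 protein-coding genes, 17.0% had such a site, and 5.36% had one at the TSS, counted here as 1.5 kb before to 0.5 kb after it. In the BMP pathway list 11 of 32 genes had a preloaded site, with 25 sites in all, and 6 genes had one at the TSS. In the Notch list the counts were 10 of 22 genes, 16 sites and 4 at the TSS. For muscle stem cell and myogenic genes they were 12 of 20 genes, 27 sites and 6 at the TSS. For the AP-1 family they were 5 of 10, 8 and 3, for YAP and TEAD genes 9 of 12, 17 and 2, and for E proteins 2 of 3, 4 and 1. The share of genes with a site was above the background in each list by both counts, and no test was made of the lists. The background covers all protein-coding genes, whether or not they carried H3K27ac. Other new peaks also lay near genes of each list, such as Id4, Lfng, Myog, Maff, Ccn1 and Tcf4, which had no preloaded site. The excess is therefore not shown to be particular to preloaded sites. A site counted for a gene may lie at the TSS of another gene.

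For the lists, rises and falls are read beside the 25.7% and 24.2% over all preloaded sites and the 23.6% and 25.8% over all matched SMAD4 peaks. The control percentile is part of the call, and starting levels were not matched between a list and these shares. At the BMP pathway genes, 12 of 24 matched SMAD4 peaks rose (50%) and 3 fell (12.5%), and all 25 sites had SMAD4 after BMP6, which 87.0% of all preloaded sites had. Id1 had 4 preloaded sites, between 9191 bp and 99 bp upstream of its TSS. At the site 6516 bp upstream (rank 204), the SMAD4 scores were 10245 and 7840 in control and 30580 and 22212 after BMP6, and the percentile went from 66.2 and 75.7 to 94.1 and 96.4. At the site 1163 bp upstream (rank 338) it went from 88.6 and 88.5 to 99.6 and 98.2. The site 99 bp upstream had no SMAD4 match of its own. Thus all 3 matched sites of Id1 rose. Id3 also had 4 preloaded sites, of which the strongest, 4398 bp downstream of the TSS, rose from 85.6 and 68.8 to 90.0 and 94.8; another rose and 2 overlapped. At Id2 the site 993 bp downstream of the TSS fell from 51.7 and 58.0 to 50.3 and 36.

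Among the inhibitors of the pathway, the promoter site of Smad6 rose slightly, from 99.5 and 99.5 to 99.8 and 99.7, while a second site 51128 bp downstream fell from 52.8 and 40.7 to 11.7 and 24.4. Ski, the gene of a corepressor of SMADs, had 5 sites, of which 1 rose, 1 fell and 3 overlapped. Chrd, a BMP antagonist, had a site 14304 bp upstream of its TSS that rose from 41.6 and 16.5 to 63.1 and 66.6. That site lay within 2 kb of the TSS of another gene. The site at the TSS of Bmpr2, the type II BMP receptor, overlapped, at 96.5 and 97.5 in control and 91.7 and 97.6 after BMP6. The site at Bambi, a decoy receptor, overlapped as well.

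At the Notch pathway genes, 7 of 14 matched SMAD4 peaks rose (50%) and 3 fell (21.4%), and 14 of 16 sites had SMAD4 after BMP6. Hes1, a transcriptional effector of Notch in MuSCs, had 1 preloaded site, 1292 bp upstream of the TSS (chromosome 16, 29882191 to 29883516, rank 361). SMAD4 there went from 77.1 and 41.6 in control to 92.0 and 91.6. Hey1, another such effector, had a site 94 bp upstream of its TSS (rank 1048) that went from 94.0 and 84.9 to 95.8 and 95.4. The paper saw more binding at Hes1 and Hey1 by eye, but its differential binding test did not call either region. That test did call other BMP and Notch pathway genes, among them Id1, Lfng and Snai1. Hes6 had 2 sites that both rose, 14285 bp and 11849 bp downstream of its TSS. The stronger, at 14285 bp, lay within 2 kb of the TSS of another gene and went from 64.2 and 70.5 to 92.5 and 87.1. Rbpj, the DNA-binding partner of activated Notch, had a site 803 bp upstream of the TSS (rank 248) that rose from 9.2 and 21.9 to 57.6 and 58.5. Heyl had the strongest pSMAD1/5/9 of this list (rank 167), where SMAD4 overlapped, at 96.4 and 99.9 and then 94.5 and 96.9. Another site of Heyl fell and a further one overlapped. Jag2, a ligand, rose at 1 of its 2 sites and had no SMAD4 after BMP6 at the other, and the fringe gene Mfng fell from 84.9 and 71.1 to 40.2 and 56.0. The Notch1 site, 58445 bp downstream of its TSS and within 2 kb of the TSS of another gene, overlapped. Notch3 had 1 site that rose and 1 that fell. Of 2 sites near Snai1, the stronger (rank 437) had no SMAD4 peak after BMP6, and the other (rank 935) had one, with percentiles of 63.4 and 85.0 in control and 85.0 and 82.2 after BMP6. Snai1 also had 3 other new peaks, which are not described here. Lfng had 3 other new peaks and no preloaded site.

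At the muscle genes, 6 of 21 matched SMAD4 peaks rose (28.6%) and 10 fell (47.6%), a peak under 2 sites being counted once. Pax7 had 5 preloaded sites. The strongest, 2874 bp downstream of the TSS (rank 232), had SMAD4 percentiles of 99.5 and 99.8 in control and 95.5 and 98.4 after BMP6, which counts as a fall. A second fell from 99.7 and 99.8 to 86.4 and 94.6, while a site 2908 bp upstream rose from 7.1 and 8.3 to 43.6 and 37.7. At Itga7, an integrin of the MuSC surface, SMAD4 fell from 97.0 and 98.0 to 90.6 and 92.1, a change shared by 2 sites over a single SMAD4 peak. The stronger of the 2 lay 13559 bp upstream of the Itga7 TSS and within 2 kb of the TSS of another gene. Six4, a homeobox factor of myogenesis, fell from 57.7 and 82.6 to 15.5 and 41.9. Myod1 had a site 5255 bp upstream that rose from 30.5 and 46.9 to 53.8 and 51.4. The strongest site of Mymx, which encodes a fusion peptide, rose from 57.6 and 48.6 to 81.1 and 86.3. It lay 4710 bp downstream of the Mymx TSS and within 2 kb of the TSS of another gene. Of the other 3 sites of Mymx, 1 fell and 2 had no SMAD4 after BMP6. The difference between this list and the BMP and Notch lists was not tested.

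In the AP-1 list 4 of 7 matched peaks rose (57.1%) and 1 fell (14.3%). All 3 sites of Junb rose, the strongest (1394 bp upstream, rank 472) from 61.0 and 26.9 to 88.7 and 89.5. Of 2 sites near Fos, one had the highest pSMAD1/5/9 rank of that list, 110, with overlapping SMAD4, and the other had no SMAD4 peak after BMP6. Atf3 fell at its TSS from 84.2 and 84.8 to 39.7 and 61.8. Among YAP and TEAD genes, 5 of 15 rose (33.3%) and 6 fell (40%). Ccn2, a matricellular target of YAP, rose from 41.0 and 24.0 to 89.6 and 80.3, and Ankrd1, another such target, fell from 77.7 and 85.8 to 58.4 and 52.0 at its stronger site and rose from 12.9 and 15.0 to 22.0 and 23.7 at the weaker. Of the 4 E protein sites, 1 fell, in an intron of Tcf12, and 3 overlapped.

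**Figure D4:**
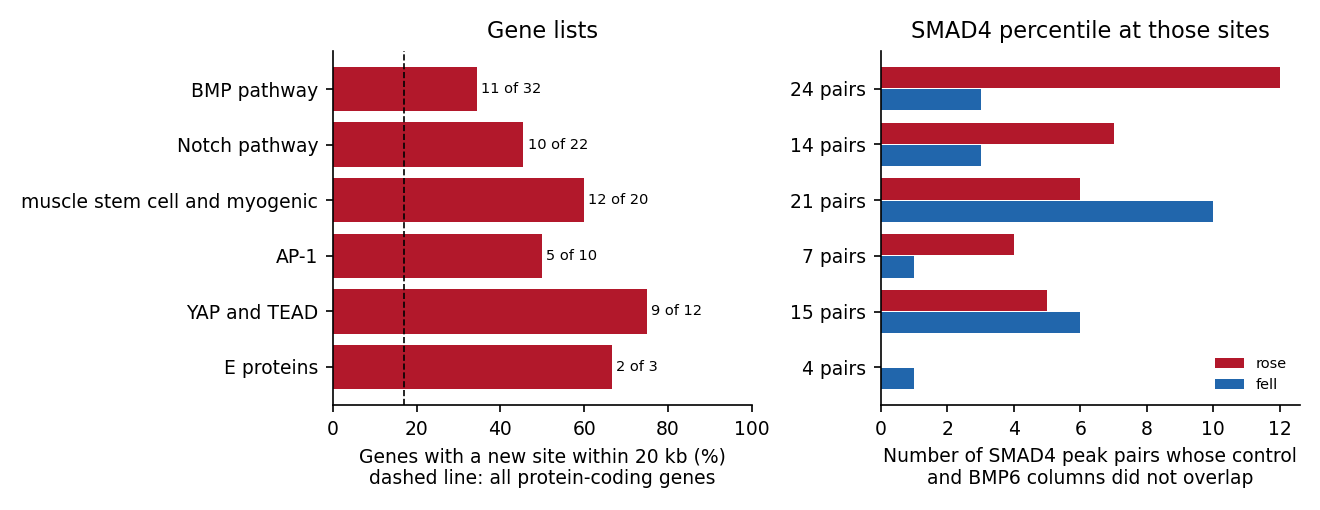
Left, percentage of genes in each list with a preloaded site in the body or within 20 kb (bars, with counts), against 17.0% of all protein-coding genes (dashed line). Right, number of matched SMAD4 peaks at these sites that rose (red) or fell (blue) by the rule of non-overlapping replicates; BMP pathway genes have 12 rises and 3 falls, muscle genes 6 and 10.

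Among the protein-coding genes with many preloaded sites, Ctif, Runx1 and Zmiz1 had 8 each, and Mical2 and Nfic had 7 each. Runx1, a transcription factor gene, had sites of rank 434 to 3096, all with SMAD4 after BMP6, and 2 rose and 3 fell. At Zmiz1, which encodes a transcriptional coregulator, all 8 overlapped. Nfic, the gene of an NFI factor, had SMAD4 after BMP6 at 4 of 7 sites, with 0 rises and 3 falls. Ctif had 5 rises and 1 fall. For comparison, 23.6% of all matched SMAD4 peaks rose and 25.8% fell, and 87.0% of all preloaded sites had SMAD4 after BMP6. The counts per gene are small and were not tested. These genes differ in length, from 31014 bp for Nfic to 266472 bp for Ctif, so their counts are not compared.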

How the data were processed

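MuSCs given BMP6 or vehicle were profiled by CUT&Tag with 3 antibodies (pSMAD1/5/9, SMAD4 and H3K27ac), and samples were grouped as the labels give them. Of 14 samples, 12 entered 6 consensus lists, and 2 made without a primary antibody were not used. Per the methods and the submitters' processing notes, the authors brought the libraries of an antibody to the same read depth, mapped reads with Bowtie2 2.5.4 (GRCm39), filtered with SAMtools 1.21, converted with bedtools 2.31.1, called peaks per replicate with JAMM (filtered peaks for pSMAD1/5/9 and SMAD4, all peaks for H3K27ac) and combined replicates with IDR at 0.05. Subsampling and a joint list mean that a peak missing from one list may lie just under the threshold. The deposited signal of a peak is a score from the authors' peak caller, given for each replicate and as their sum, and the deposited IDR is a −log10 value. The replicate columns carry no replicate number and 0 further sample columns were found.

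The members and gene lists were chosen with earlier results of these data known. Peaks overlapped with at least 1 bp. Matched peaks were each other's largest overlap. Location used canonical GENCODE transcripts of 21603 protein-coding genes and 2 kb around the TSS, and genes a 20 kb flank. Motifs were searched in 200 bp windows of GRCm39. Shares are given with 95% intervals by Wilson's method. Comparisons used two-sided Fisher's exact tests with Benjamini-Hochberg adjustment over 39 comparisons at a threshold of 0.05. Named genes were those nearest to the 10 strongest members, the 5 with most members (and a tie), those nearest to the 5 widest SMAD4 rises and 5 falls, and genes of the lists; 1 gene that the rule names is not reported here. For rises and falls over all preloaded sites, the control peak of a matched pair had to overlap a member. For named sites and gene lists, both SMAD4 peaks of the pair had to overlap the member. Printed sequences were picked from these. Overlaps, matching, calls and tests were tested on simulated data. Python 3.11.15, numpy 2.4.6, pandas 2.3.3, scipy 1.17.1, pysam 0.24.0, samtools 1.23.1 and matplotlib 3.10.9 were used.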

Additional observations from a re-analysis of the deposited data

How the results depend on the processing

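The share of pSMAD1/5/9 peaks that were preloaded, 47.2%, was 58.7% with an IDR of at most 0.01 for pSMAD1/5/9, 28.6% with the same limit for control SMAD4, 35.8% with an overlap of at least 50% of both peaks, 39.7% with SMAD4 summits within 200 bp and 48.6% on autosomes. The higher share with SMAD4 after BMP6 and the higher share of kept control SMAD4 peaks held under every alternative run. Against shared peaks, the SMAD4 share reversed to 0.830 percentage points higher with control SMAD4 at an IDR of at most 0.01. The excess of H3K27ac over other new peaks after BMP6 no longer passed at an IDR of at most 0.01 for pSMAD1/5/9 (0.359 points), in the strongest (0.787 points) and second quartile group of signal (0 points) and in the quartile group highest in GC (0.560 points), and before BMP6 it did not pass in the second quartile group of signal (0.775 points), the lowest of these shares being 98.8%. Location measures past the threshold numbered 1, or 0 on autosomes, where the X chromosome is left out by construction, and 2 in the strongest quartile group. Motif measures past the threshold numbered 3, but 0 and 1 in the second and weakest quartile group of signal, (the 1 being TGTGGT, lower at preloaded sites and not among the 3), and 0 in both GC-rich quartile groups, an alternative chosen after seeing the data. Against shared peaks 1 motif passed with windows of 400 bp, against 0. Fewer peaks were tested within quartile groups. For each replicate left out in turn, the difference in SMAD4 rises ranged from 3.04 to 7.03 points and in falls from -3.36 to -5.94 points. H3K27ac rises at members ranged from 25.4% to 44.4% and falls from 26.4% to 47.0%, since with 1 replicate in an arm fewer values must not overlap. The shares over all matched H3K27ac peaks in these runs are not given. The ranges are therefore not read as changes at preloaded sites. At the TSS, 6 BMP pathway, 4 Notch, 6 muscle and 2 YAP and TEAD genes had a member. Of 115 alternative values for whole comparisons, 84 kept their direction and call, 24 moved and 7 no longer passed. Of 347 for single measures, 319 kept their call, 19 no longer passed, 8 newly passed and 1 that had passed reversed. The 319 include differences that passed in neither run and changed direction. For example, the TSS share against other new peaks went from 0.0515 to -2.54 points with an IDR of at most 0.01 for pSMAD1/5/9. Groups by control SMAD4 percentile, tried after seeing the data, are not counted or read, because the control percentile is part of the call of a rise or fall. No paired analysis was possible because the replicate columns carry no replicate numbers. With 2 replicates per group and no read counts, small changes of rank cannot be resolved.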
